A study of Homo sapiens with 4 samples.

Results

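The genes described are 8 liver-enriched transcription factors, HNF4A, FOXA1, FOXA2, FOXA3, CEBPA, NR1H4, NR5A2 and ONECUT1, which were taken by gene symbol from a table of 19739 coding genes. All 8 symbols were found, each on 1 row. RNA was sequenced from cultures under the labels Huh7 and HepG2, both human liver cancer cell lines. The treated cultures of each line were exposed over 24 h to low-frequency ultrasound plus a preparation labelled RSL3@O2-ICG NBS, and the untreated cultures received no treatment. RSL3 is known as an inhibitor of the lipid peroxide-reducing enzyme GPX4, and the labels do not spell out NBS. Each of the 4 groups (treated Huh7, untreated Huh7, treated HepG2, untreated HepG2) holds 1 library, and all were grown in DMEM with serum at 5% CO2. No culture given the preparation without RSL3, the preparation without ultrasound, ultrasound alone or RSL3 alone is among them. The components of the treatment therefore cannot be told apart.

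These factors form the core of the hepatocyte regulatory network, in which they bind each other's genes and the genes for plasma proteins, lipid transport and bile acid metabolism. FOXA1, FOXA2 and FOXA3 are forkhead proteins that open chromatin at liver genes. HNF4A and NR5A2 are nuclear receptors that hold liver genes on, and NR1H4 (also called FXR) is the bile acid receptor. CEBPA is a leucine zipper factor of mature, non-dividing hepatocytes, and ONECUT1 (HNF6) acts in early liver and bile duct development. Hepatocellular carcinoma is known for loss of parts of this network as tumours lose hepatocyte features.

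Levels are given in FPKM, fragments scaled to transcript length and library depth, as the authors deposited them, and can be compared between genes because they are per length. The lowest values place the depth of the libraries between 23000000 and 26700000 fragments. The 2 libraries labelled HepG2 went against their label. HepG2 cells are known to secrete albumin and other plasma proteins, but 0 of 10 hepatocyte markers reached 1 FPKM in either of them, and ALB, APOA2, TTR, FGA, FGB, FGG and AHSG were listed at 0 in both. The 10 markers summed to 0.263 FPKM in the treated and 0.0634 FPKM in the untreated library labelled HepG2. All 10 passed 1 FPKM in both Huh7 libraries, where they summed to 1920 FPKM with treatment and 2070 FPKM without. The pair is called HepG2-labelled throughout, and any difference between Huh7 and HepG2-labelled cells is a difference between these libraries, not one known to hold for HepG2.

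Promoter sequences were available from RefSeq (GRCh38.p14) for 7 of the 8 genes, the exception being FOXA2. A promoter here is the 250 bases before a transcription start, written 5′ to 3′ on the gene's strand. They are shown to place the genes described below, and no value below rests on them: CEBPA, the only 1 of the 8 genes called after treatment; HNF4A, whose upstream start is known from fetal liver and pancreas and whose downstream start is known from adult liver; and the downstream start of NR5A2, the only one of the promoters examined that held a forkhead motif.
CEBPA, chr19:33302535-33302784, minus strand, with TATAAA in capitals:
CEBPA: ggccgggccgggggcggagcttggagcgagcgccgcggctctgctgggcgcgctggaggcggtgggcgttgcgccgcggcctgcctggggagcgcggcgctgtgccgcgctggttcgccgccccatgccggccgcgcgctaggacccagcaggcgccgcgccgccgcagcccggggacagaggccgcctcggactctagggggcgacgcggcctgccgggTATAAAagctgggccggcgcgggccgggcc
HNF4A upstream start, chr20:44355449-44355698, plus strand, no capitals because no searched motif matched:
HNF4A upstream: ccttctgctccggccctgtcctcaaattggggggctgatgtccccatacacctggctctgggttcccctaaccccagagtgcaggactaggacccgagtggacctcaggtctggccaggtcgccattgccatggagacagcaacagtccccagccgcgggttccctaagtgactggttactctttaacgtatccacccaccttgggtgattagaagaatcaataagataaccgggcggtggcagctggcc
HNF4A downstream start, chr20:44400989-44401238, plus strand, no capitals for the same reason:
HNF4A downstream: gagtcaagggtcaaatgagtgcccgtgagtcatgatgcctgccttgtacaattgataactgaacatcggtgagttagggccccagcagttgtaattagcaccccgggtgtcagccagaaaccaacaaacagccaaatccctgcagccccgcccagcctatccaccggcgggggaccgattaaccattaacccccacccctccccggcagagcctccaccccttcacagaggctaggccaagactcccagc
NR5A2 downstream start, chr1:200042341-200042590, plus strand, with the forkhead motif TGTTTAC in capitals as it reads on the opposite strand:
NR5A2 downstream: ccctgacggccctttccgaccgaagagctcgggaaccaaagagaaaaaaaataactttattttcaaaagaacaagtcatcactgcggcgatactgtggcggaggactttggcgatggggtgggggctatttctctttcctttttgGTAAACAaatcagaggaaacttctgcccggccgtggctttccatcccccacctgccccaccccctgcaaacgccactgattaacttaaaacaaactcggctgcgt

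Motifs were searched on both strands. For forkhead proteins these were TGTTTAC and its variant with A in place of G, written TATTTAC. HNF4A was represented by CAAAGTCCA, the C/EBP family by TTGCGCAA, the C/EBP-ATF composite element by TGATGNAAT, NR5A2 by CAAGGTCA, ONECUT1 by ATCGAT and the TATA box by TATAAA. No motif is a part of another. TGTTTAC was present in 2.98% of 27305 promoters of the same length, and in the NR5A2 promoter it lay at positions −105 to −99 counted from the start. TATAAA was present in 11.1% of promoters. It lay at positions −30 to −25 in the CEBPA promoter, which was 81.2% G and C, against a median of 58.0% over all promoters. The FOXA3 promoter held it at the same positions, and the upstream NR5A2 promoter held it on the opposite strand. The other forkhead variant (held by 2.47% of all promoters) and the motifs of HNF4A (0.293%), C/EBP (0.11%), C/EBP-ATF (0.916%), NR5A2 (1.17%) and ONECUT1 (0.674%) matched in none of the examined promoters of the 7 genes. A match describes the letters only.

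In Huh7 cells all 8 factors were at or above 1 FPKM in both libraries, and they summed to 344 FPKM with treatment and 343 FPKM without. CEBPA stood far above the others, at 228 FPKM with treatment and 229 FPKM without, which placed it at percentiles 99.0 and 98.9 of all coding genes. FOXA2 came next with 41.9 FPKM in treated and 37.6 FPKM in untreated Huh7 cells. In the untreated library the order then ran NR5A2, FOXA3, FOXA1, HNF4A, NR1H4 and ONECUT1, between 18.3 and 6.11 FPKM. In the treated library it ran FOXA3, FOXA1, NR5A2, ONECUT1, HNF4A and NR1H4, between 21.3 and 4.72 FPKM. With 1 library per group the spread between cultures is unknown, so neighbours in these orders cannot be ranked beyond counting error.

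The same 8 factors summed in the HepG2-labelled libraries to 9.52 FPKM with treatment and 3.56 FPKM without. FOXA1 was at or above 1 FPKM in both libraries and CEBPA in the treated one alone. FOXA2 was listed at 0 in both, NR1H4 was listed at 0 in the treated library and ONECUT1 was listed at 0 in the untreated one. In bulk RNA, fewer cells expressing a gene and less RNA per cell cannot be told apart.

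**Figure D1:**
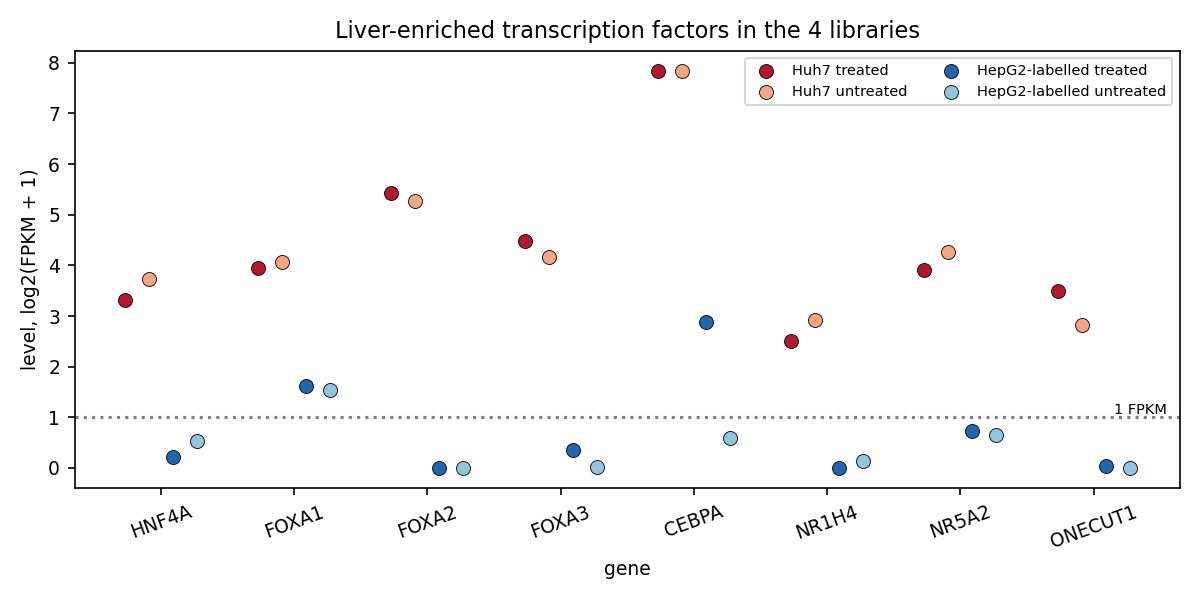
Levels of the 8 factors as log2(FPKM + 1), 1 point per library, with Huh7 treated, Huh7 untreated, HepG2-labelled treated and HepG2-labelled untreated from left to right in each gene and a dotted line at 1 FPKM. All Huh7 points lie above the line, whereas of the HepG2-labelled points only FOXA1 in both libraries and CEBPA in the treated library do.

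The first question was whether treatment came with a change in the factors within each line. Ratios were taken as log2((treated FPKM + 1)/(untreated FPKM + 1)), a scale that understates the change of genes with low values, and a gene was called when it had at least 1 FPKM in 1 of the libraries compared and a ratio of at least 2-fold. In Huh7 cells 0 of the 8 factors were called in either direction, beside 3.88% of 11945 genes called higher and 2.19% called lower. CEBPA was called higher in the treated HepG2-labelled library and none was called lower, beside 6.7% of 11843 genes called higher and 2.43% called lower. Only FOXA1 and CEBPA passed the minimum level there, so the other 6 could not be called. No test is possible within a line.

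HNF4A, the receptor at the centre of the network, had 8.95 FPKM in treated and 12.3 FPKM in untreated Huh7 cells, a log2 ratio of −0.42. The plain ratio was 0.725, and its 95% interval from the inferred fragments, computed for the shortest annotated transcript, ran between 0.616 and 0.853. Such intervals cover counting error only and say nothing of the variation between cultures. The median log2 ratio of all genes in that comparison was 0.102, with 95% of genes between −0.95 and 1.11, so HNF4A lay at percentile 12.9 within the ordinary range. Among HepG2-labelled cells HNF4A had 0.166 FPKM with treatment and 0.449 FPKM without, both under the minimum. HNF4A spans chr20:44355700-44434596 on the plus strand, and both of its starts shown above feed 1 row of the table, so the values do not say which start was used. No long noncoding transcript within 10 kb of HNF4A reached 1 FPKM in any library, the antisense gene HNF4A-AS1 being listed at 0 in all 4.

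The FOXA genes differed little between treated and untreated Huh7 cells. FOXA1 (chr14:37589552-37596059, minus strand) had 14.4 FPKM with treatment and 15.7 FPKM without, a log2 ratio of −0.12. FOXA2 (chr20:22581005-22585455, minus strand) had 41.9 FPKM with treatment and 37.6 FPKM without, a log2 ratio of 0.15. FOXA3 (chr19:45863989-45873797, plus strand) had 21.3 FPKM with treatment and 16.9 FPKM without, a log2 ratio of 0.32. All 3 ratios lay within the range of 95% of genes. FOXA2 carried most of the family's transcripts in Huh7 cells, with 54.0% of the summed FOXA FPKM in the treated and 53.6% in the untreated library. FOXA3 made up 27.5% with treatment and 24.1% without, and FOXA1 18.5% with treatment and 22.3% without.

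In the HepG2-labelled libraries the balance of the family was another one. FOXA1 had 2.06 FPKM with treatment and 1.9 FPKM without, and its ratio of 1.08 had a counting interval of 0.85 to 1.38, which includes no difference. It made up 88.0% of the FOXA sum in the treated and 98.9% in the untreated library. FOXA3 stood at 0.279 FPKM with treatment and 0.0202 FPKM without, which corresponds to about 13 fragments against 1. The ratio of 13.8 therefore had a counting interval of 2.21 to 625, and both levels were under the minimum.

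CEBPA gave the largest difference among the 8 genes on the log2(FPKM + 1) scale, although the plain ratio of FOXA3 above, from far fewer fragments, was larger. The HepG2-labelled libraries had 6.34 FPKM with treatment and 0.514 FPKM without, about 385 fragments (exact 95% Poisson interval 347 to 425) against 35 (24.4 to 48.7). The treated library was thus higher, by 2.28 on the log2(FPKM + 1) scale, which is 4.85-fold, and by 12.3-fold in plain FPKM with a counting interval of 8.79 to 18.1. This placed CEBPA at percentile 99.7 of all genes in that comparison, outside the −0.99 to 1.37 that held 95% of genes. Under the other pseudocount, minimum levels and scalings the log2 ratio ranged between 2.22 and 3.39. In Huh7 cells CEBPA had 228 FPKM with treatment and 229 FPKM without, a log2 ratio of −0.01 and a plain ratio of 0.996 with a counting interval of 0.974 to 1.02. The treated HepG2-labelled library therefore still held far less CEBPA than either Huh7 library.

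**Figure D2:**
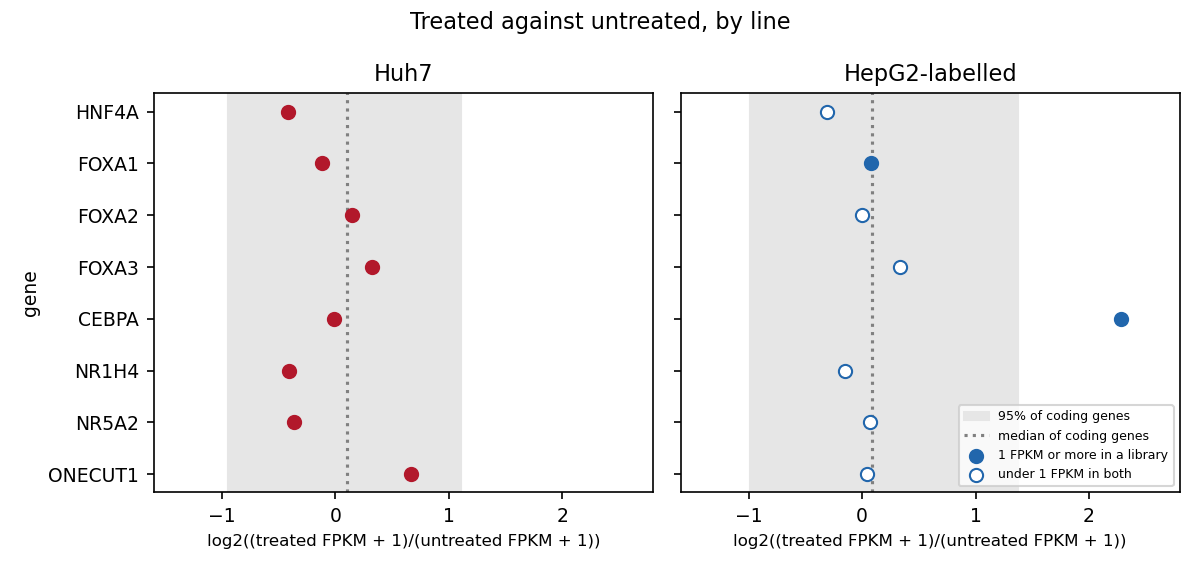
Log2 ratios of treated over untreated libraries for the 8 factors in Huh7 (left panel) and HepG2-labelled cells (right panel), with filled points for genes at 1 FPKM or more in a library and open points for genes below it in both. Grey bands hold 95% of all coding genes that passed the minimum, and CEBPA in the HepG2-labelled panel, at 2.28, is the only point outside a band.

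CEBPA is a gene of 1 exon at chr19:33299934-33302534 on the minus strand. In GENCODE 29, 25.0% of its exonic bases are shared with the gene AC008738.3 and 18.3% with AC008738.5. Both were listed at 0 in all 4 libraries, and since the labels do not say whether strand was kept, reads of CEBPA and of such overlapping transcripts cannot be told apart. The divergent long noncoding transcript CEBPA-DT-201 starts 323 bases from CEBPA, beyond the promoter printed above. It had 7.25 FPKM in treated and 4.27 FPKM in untreated Huh7 cells, against 0.048 FPKM in the treated and 0.142 FPKM in the untreated HepG2-labelled library. CEBPA-DT-201 thus did not stand higher in the treated HepG2-labelled library, where CEBPA did, although its levels there correspond to very few fragments.

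The partners of CEBPA were examined because C/EBP proteins bind DNA as dimers with each other and with ATF4-type leucine zippers. Of the 8 listed, 6 passed the minimum in each line. In the HepG2-labelled libraries 3 of the 6 were called higher in the treated library and none lower, beside 6.7% of 11843 genes called higher and 2.43% lower. The median log2 ratio of the 6 was 1.14, beside 0.087 over all genes. DDIT3 (CHOP), the stress-induced dimer partner that blocks C/EBP binding to its classical sites, had 34.2 FPKM with treatment and 6.3 FPKM without. ATF4, the main transcription factor of the integrated stress response, had 229 FPKM with treatment and 85.6 FPKM without. CEBPG, a common dimer partner of ATF4, had 22.9 FPKM with treatment and 8.64 FPKM without. CEBPB, the C/EBP of the acute phase response, had 155 FPKM with treatment and 78.9 FPKM without, a log2 ratio of 0.96 that missed the 2-fold limit, and it joined the called genes when libraries were rescaled to the same sum. The exons of DDIT3 share 27.2% of their bases with MARS, so its value is uncertain to that extent.

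In Huh7 cells 0 of the same 6 were called, beside 3.88% of all genes called higher and 2.19% lower. Their median log2 ratio was 0.11 beside 0.102 over all genes. ATF4 had 202 FPKM with treatment and 132 FPKM without, a log2 ratio of 0.61. DDIT3 had 13.7 FPKM with treatment and 11.8 FPKM without. CEBPD, another acute phase C/EBP, had 39.5 FPKM with treatment and 54.2 FPKM without. Between the lines, CEBPD was called higher and CEBPB lower in Huh7 cells in both states, CEBPG was called higher among untreated and DDIT3 lower among treated libraries. The shares over all genes were 15.8% higher and 16.6% lower among treated libraries, and 17.5% higher and 17.2% lower among untreated ones. The family was built differently in the lines. CEBPA made up 70.1% of the summed CEBPA, CEBPB, CEBPD and CEBPG level in treated and 68.1% in untreated Huh7 cells, against 3.26% in the treated and 0.501% in the untreated HepG2-labelled library. CEBPB made up 8.63% in treated and 7.86% in untreated Huh7 cells, against 79.6% in the treated and 77.0% in the untreated HepG2-labelled library.

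**Figure D3:**
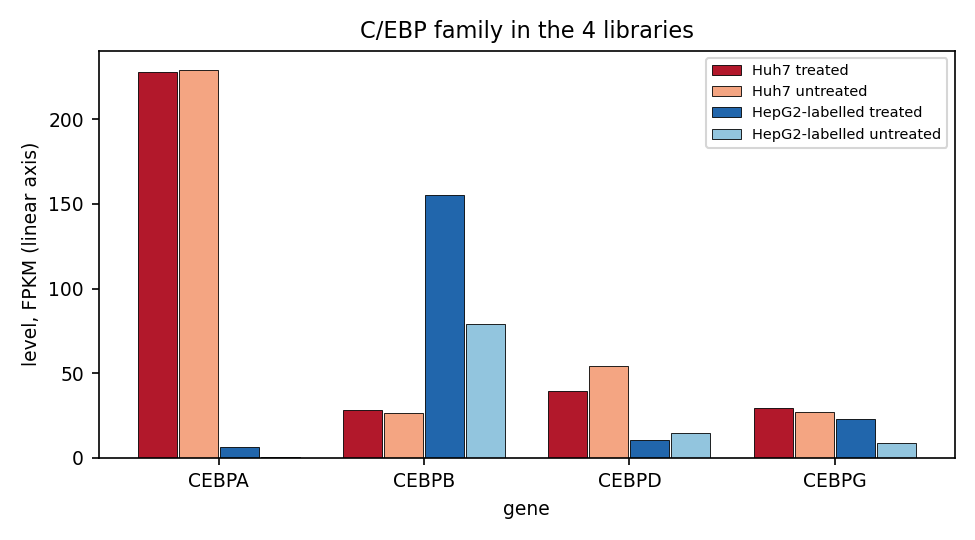
Levels of 4 C/EBP genes in FPKM on a linear axis starting at 0, 1 bar per library, with Huh7 treated, Huh7 untreated, HepG2-labelled treated and HepG2-labelled untreated from left to right. CEBPA is the tallest bar of both Huh7 libraries at 228 and 229 FPKM, and CEBPB is the tallest of both HepG2-labelled libraries at 155 FPKM with treatment and 78.9 FPKM without.

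Because CEBPA is also a factor of the myeloid lineage, markers of blood cells are given beside it. In the HepG2-labelled libraries 1 of 6 blood markers reached 1 FPKM, and the list summed to 21.6 FPKM with treatment and 1.59 FPKM without. Nearly all of this was CD68, a lysosomal protein abundant in macrophages, with 20.7 FPKM in the treated and 1.38 FPKM in the untreated library, and 81.7% of its exonic bases are shared with AC016876.2. PTPRC (CD45), the defining surface protein of white blood cells, was listed at 0 in all 4 libraries, as was CD3E. CD14 was at 0.236 FPKM with treatment and 0.0472 FPKM without, and CEBPE, a granulocyte C/EBP, was listed at 0 in all 4. In Huh7 cells the blood list summed to 5.14 FPKM with treatment and 15.7 FPKM without, and CD68 was called higher there too, at 2.83 FPKM with treatment and 0.521 FPKM without. CD14 was called lower in Huh7 cells, at 2.21 FPKM with treatment and 15.1 FPKM without. Other marker lists also differed between the HepG2-labelled libraries. Fibroblast and stellate markers summed to 9.48 FPKM with treatment and 8.85 FPKM without, with 3 of 7 at or above 1 FPKM in each; ACTA2 (5.23 against 1.22 FPKM) and COL1A1 (2.32 against 0.423 FPKM) were called higher with treatment and PDGFRB (1.67 against 5.67 FPKM) lower. Cholangiocyte markers summed to 36.6 FPKM with treatment and 68.6 FPKM without, KRT7 being called lower at 29.9 against 63.8 FPKM. Endothelial markers summed to 1.15 FPKM with treatment and 0.112 FPKM without, with TIE1 called higher and listed at 0 without treatment. The part of any of these in the CEBPA difference was not tested.

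The nuclear receptors of bile acid metabolism had lower values in treated than untreated Huh7 cells. NR1H4 (chr12:100473708-100564414, plus strand) had 4.72 FPKM with treatment and 6.62 FPKM without, a log2 ratio of −0.41. Its plain ratio of 0.713 had a counting interval of 0.506 to 0.982 for the shortest annotated transcript. NR5A2 (chr1:200027614-200177420, plus strand) had 14.1 FPKM with treatment and 18.3 FPKM without, a log2 ratio of −0.36. Both lay within the range of 95% of genes, at percentiles 13.2 and 15.5. HepG2-labelled cells held little of either: NR5A2 had 0.651 FPKM with treatment and 0.573 FPKM without, and NR1H4 was listed at 0 with treatment and at 0.106 FPKM without.

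The partners and repressors of these receptors were measured beside them. In Huh7 cells all 11 passed the minimum and 0 were called, with a median log2 ratio of 0.28 beside 0.102 over all genes. NR0B2 (SHP), which NR1H4 induces and which represses NR5A2 and HNF4A, had 3.57 FPKM in treated and 6.39 FPKM in untreated Huh7 cells and was listed at 0 in both HepG2-labelled libraries. For HepG2-labelled cells 10 of the 11 passed, 0 were called and the median was 0.1. Between the lines, NR0B2 was called higher and PPARGC1A lower in Huh7 cells in both states, while NCOA2 and NRIP1 were called higher and NCOA3 lower among treated libraries alone. The shares over all genes were 15.8% higher and 16.6% lower among treated libraries, and 17.5% higher and 17.2% lower among untreated ones. NR0B2 passed the minimum through Huh7 cells alone, and PPARGC1A among untreated libraries through HepG2-labelled cells alone, so those calls could go only that way. PPARGC1A, a coactivator of HNF4A and other nuclear receptors, had 1.21 and 0.491 FPKM in treated and untreated Huh7 cells, against 4.79 and 3.36 FPKM in treated and untreated HepG2-labelled cells.

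ONECUT1 (chr15:52748068-52791359, minus strand) had the largest positive ratio of the 8 genes in Huh7 cells. It had 10.3 FPKM with treatment and 6.11 FPKM without, a log2 ratio of 0.67 at percentile 88.1 of all genes. The plain ratio was 1.69, with a counting interval of 1.38 to 2.08 for the shortest annotated transcript. Under the other settings the log2 ratio lay between 0.56 and 0.74, always short of 2-fold. Its relative ONECUT2 had 6.97 FPKM with treatment and 4.81 FPKM without in Huh7 cells, a log2 ratio of 0.46. ONECUT1 was at 0.0317 FPKM in the treated HepG2-labelled library and listed at 0 in the untreated one.

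Across both lines, the effect of treatment was tested with limma on log2(FPKM + 1) in all 4 libraries, with a term for cell line and 1 residual degree of freedom. No factor passed a Benjamini-Hochberg adjusted p of 0.05, which 0% of 13030 genes passed in either direction, while 1534 genes had an unadjusted p under 0.05. The adjusted p of the 8 factors ranged between 0.412 and 0.981. For CEBPA the limma coefficient was 1.14 with a standard error of 0.472, an unadjusted p of 0.0443 and an adjusted p of 0.412. The coefficient averages a ratio of 2.28 in HepG2-labelled and −0.01 in Huh7 cells, and with 1 library per group the difference between the lines could not be tested.

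The second question was how Huh7 and HepG2-labelled cells differed in these factors. All 8 were called higher in Huh7 cells in both states, beside 15.8% of 12823 genes called higher and 16.6% called lower among treated libraries, and 17.5% of 12446 called higher and 17.2% called lower among untreated ones. In the untreated state 7 of the 8, and in the treated state 6 of the 8, passed the minimum through the Huh7 library alone and so could only lie higher there. FOXA1, which passed in all 4 libraries, was 6.99-fold higher in treated Huh7 than in treated HepG2-labelled cells, with a counting interval of 5.82 to 8.41. Among untreated libraries it was 8.27-fold higher in Huh7 cells, with an interval of 6.93 to 9.89.

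For CEBPA the gap between the lines was narrower among the treated libraries. It was 36.0-fold higher in treated Huh7 cells (counting interval 32.5 to 39.9) and 446-fold higher in untreated Huh7 cells (323 to 645). NR5A2 was 21.6-fold higher in treated and 32.0-fold higher in untreated Huh7 cells. Its intervals overlapped for the shortest annotated transcript (16.1 to 29.5 and 24.2 to 44.4) and for the longest (17.3 to 27.7 and 25.5 to 40.8). HNF4A was 53.9-fold higher in treated and 27.5-fold higher in untreated Huh7 cells. For the shortest annotated transcript its intervals of 20.8 to 153 and 16.2 to 50.6 overlapped. For the longest, those of 35.9 to 82.6 and 21.7 to 34.8 did not, so the overlap depends on the transcript length assumed. FOXA3 showed a narrower gap among treated libraries as CEBPA did, being 76.4-fold higher in treated Huh7 cells (43.8 to 142) and 835-fold higher in untreated Huh7 cells (157 to 34700), the last ratio resting on about 1 fragment in the untreated HepG2-labelled library. FOXA2, NR1H4 and ONECUT1 are given no fold because a HepG2-labelled library listed them at 0.

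The limma term for cell line passed for all 8, with adjusted p between 1.49e-05 for FOXA2 and 0.000458 for NR1H4, beside 18.6% of 13030 genes called higher and 19.1% called lower in Huh7 cells. HNF4A, FOXA2, FOXA3, NR1H4, NR5A2 and ONECUT1 were under 1 FPKM in both HepG2-labelled libraries and entered the test through Huh7 cells alone, so their passing is no support for the difference. For CEBPA the limma coefficient was 6.11 with a standard error of 0.472 and an adjusted p of 8.49e-05. For FOXA1 it was 2.43 with a standard error of 0.264 and an adjusted p of 0.000415. The libraries of a line were 1 treated and 1 untreated culture, so this p asks whether the lines differed alike in both states, not whether separate cultures of a line agree.

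Other liver-enriched factors split between those that followed the 8 and those that did not. Of 18 listed, 15 passed the minimum in Huh7 cells. The same 7 of them, among which were GATA4, PROX1, CREB3L3, HHEX, KLF15 and GATA6, were called higher in Huh7 than HepG2-labelled cells in both states. Over all genes, 15.8% were called higher among treated and 17.5% among untreated libraries. The limma line term called 7 of 15 higher and none lower, beside 18.6% of all genes higher and 19.1% lower. GATA4, PROX1, CREB3L3 and KLF15 passed the minimum through Huh7 cells alone and so could only lie higher there. GATA4, a zinc finger factor of early liver, had 13.9 FPKM in treated and 17.1 FPKM in untreated Huh7 cells and was listed at 0 in both HepG2-labelled libraries. PROX1, a homeobox factor of hepatoblasts, had 10.8 FPKM in treated and 7.46 FPKM in untreated Huh7 cells and was likewise listed at 0.

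RXRA, the dimer partner of NR1H4, had 13.9 and 17.2 FPKM in treated and untreated Huh7 cells and 16.5 and 16.6 FPKM in treated and untreated HepG2-labelled cells. NR2F2 (COUP-TFII) was called lower in untreated Huh7 cells, at 3.14 FPKM, against 8.96 FPKM in untreated HepG2-labelled cells. Treatment was followed by no called change among these factors in either line, with median log2 ratios of −0.17 over 15 genes in Huh7 and −0.29 over 10 genes in HepG2-labelled cells. The nearest to the limit was TBX3, a T-box factor of hepatoblasts, with 4.52 FPKM in treated and 9.96 FPKM in untreated Huh7 cells, a log2 ratio of −0.99 that passed the limit with the lower pseudocount and under both other scalings.

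Among 15 other forkhead genes, FOXQ1 alone was called after treatment, at 4.28 FPKM in the treated and 11.4 FPKM in the untreated HepG2-labelled library. Between the lines, FOXC1 and FOXL1, forkhead genes of mesenchymal tissues, stood the other way round from the FOXA genes. FOXC1 had 0.622 and 0.402 FPKM in treated and untreated Huh7 cells, against 10.6 and 15.7 FPKM in treated and untreated HepG2-labelled cells. FOXL1 was listed at 0 in both Huh7 libraries and had 16.6 FPKM in the treated and 9.13 FPKM in the untreated HepG2-labelled library. FOXF1 and FOXD1 were also called lower in Huh7 cells in both states, and FOXJ1, the forkhead of ciliated cells, was called higher. FOXC1, FOXL1, FOXF1 and FOXD1 passed the minimum through the HepG2-labelled libraries alone, so they could only lie lower in Huh7 cells. FOXJ1 passed through Huh7 cells alone and could only lie higher there. Of the 15 genes, 4 were called lower in each state, beside 16.6% of all genes among treated and 17.2% among untreated libraries. FOXP4 was called higher in Huh7 cells among untreated libraries alone.

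Factors of other epithelia were read in the same libraries because HepG2-labelled cells lacked the hepatocyte set. Of 21 listed, 9 passed in each comparison between lines. TFAP2A, TFAP2C and SOX17 were called lower in Huh7 cells in both states. Over all genes, 16.6% were called lower among treated and 17.2% among untreated libraries. TFAP2C and SOX17 were listed at 0 in both Huh7 libraries and so could only lie lower there, as could TFAP2A among treated libraries. TFAP2A, an AP-2 factor of surface ectoderm and neural crest, had 0.316 and 1.07 FPKM in treated and untreated Huh7 cells, against 9.15 and 10.5 FPKM in treated and untreated HepG2-labelled cells. CDX2, a homeobox factor of intestine, was called higher in Huh7 cells, with 8.26 FPKM with treatment and 10.6 FPKM without. It was listed at 0 in both HepG2-labelled libraries, so it passed the minimum through Huh7 cells alone and could only lie higher there. Over all genes, 15.8% were called higher among treated and 17.5% among untreated libraries. KLF5 was called lower after treatment in Huh7 cells, at 11.7 FPKM against 32.7 FPKM without, and ELF3 was called higher in Huh7 cells among treated libraries alone.

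The third question was whether textbook targets of the factors differed after treatment. Most targets could be read in Huh7 cells alone. Of 14 HNF4A targets, 9 passed the minimum in Huh7 cells, where 0 were called higher and 2 lower. Of all 11945 genes, 3.88% were called higher and 2.19% lower. The median log2 ratio of the targets was −0.55, beside 0.102 over all genes, and ranged between −0.68 and −0.36 under the other settings. In the same comparison the 10 hepatocyte markers, some of them also HNF4A targets, had a median of −0.38 with 0 called. The 6 passing factors of other epithelia had a median of −0.34. MTTP, which loads lipid onto apolipoprotein B, had 5.27 FPKM in treated and 16.7 FPKM in untreated Huh7 cells, a log2 ratio of −1.5. APOC3, an inhibitor of triglyceride clearance, had 14.2 FPKM with treatment and 33.7 FPKM without, a log2 ratio of −1.19. The list was not uniform. APOA2 had 628 FPKM with treatment and 349 FPKM without, and APOB, the structural protein of low density lipoprotein, had 89.3 FPKM with treatment and 59.6 FPKM without. Of the 14, 0 reached 1 FPKM in the HepG2-labelled libraries, and CYP7A1, CYP8B1, G6PC and F9 were listed at 0 in all 4 libraries.

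Of 10 NR1H4 targets, 7 passed in Huh7 cells, 2 were called lower and none higher, beside 2.19% of all genes called lower and 3.88% higher. Their median log2 ratio was −0.45, beside 0.102 over all genes, with −0.57 to −0.34 under the other settings. FGF19, the hormone by which NR1H4 limits bile acid synthesis, had 3.98 FPKM in treated and 13.3 FPKM in untreated Huh7 cells, a log2 ratio of −1.52. KNG1, the kininogen precursor, had 2.62 FPKM with treatment and 7.33 FPKM without, and it shares 15.4% of its exonic bases with AC068631.1. For HepG2-labelled cells 3 targets passed and 0 were called.

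Of 8 NR5A2 targets, 3 passed in Huh7 cells, namely SCARB1, APOA1 and NR0B2. SCARB1, the high density lipoprotein receptor, was called lower at 28.4 FPKM with treatment, against 66.6 FPKM without, beside 2.19% of all genes called lower. SCARB1 in HepG2-labelled cells had 50.9 FPKM with treatment and 55.9 FPKM without. APOA1 and NR0B2 are also on the lists of HNF4A and NR1H4, so the lists do not count as separate evidence.

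Of 7 FOXA targets, 4 passed in Huh7 cells. AFP, the fetal counterpart of albumin, was called lower at 88.2 FPKM with treatment, against 178 FPKM without, beside 2.19% of all genes called lower. ALB had 711 FPKM in treated and 883 FPKM in untreated Huh7 cells, a log2 ratio of −0.31. In the HepG2-labelled libraries IGFBP1, an insulin-like growth factor binding protein, had 32.8 FPKM with treatment and 4.84 FPKM without. CPS1, the first enzyme of the urea cycle and a target of both FOXA and CEBPA, had 74.8 FPKM with treatment and 171 FPKM without in the same libraries, against 0.251 and 0.191 FPKM in treated and untreated Huh7 cells. CPS1 thus stood lower in the treated HepG2-labelled library, the one in which CEBPA stood higher, and it was the only 1 of 6 CEBPA targets to pass there. GYS2, TAT, PCK1 and CSF3R were under 1 FPKM in all 4 libraries. The limma treatment term called 0 genes of every target list. Between the lines, all 9 passing HNF4A targets were called higher in Huh7 cells in both states. So were ALB, AFP and, among NR1H4 targets, APOC2, FGF19 and KNG1. All of these passed the minimum through Huh7 cells alone and so could only lie higher there. CPS1, IGFBP1 and the proteoglycan gene SDC1 were called lower in Huh7 cells in both states. CPS1 passed through HepG2-labelled cells alone, so it could only lie lower in Huh7 cells. SLC51B, a bile acid transporter subunit, was called higher in Huh7 cells among treated libraries alone. The shares over all genes were 15.8% higher and 16.6% lower among treated libraries, and 17.5% higher and 17.2% lower among untreated ones.

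**Figure D4:**
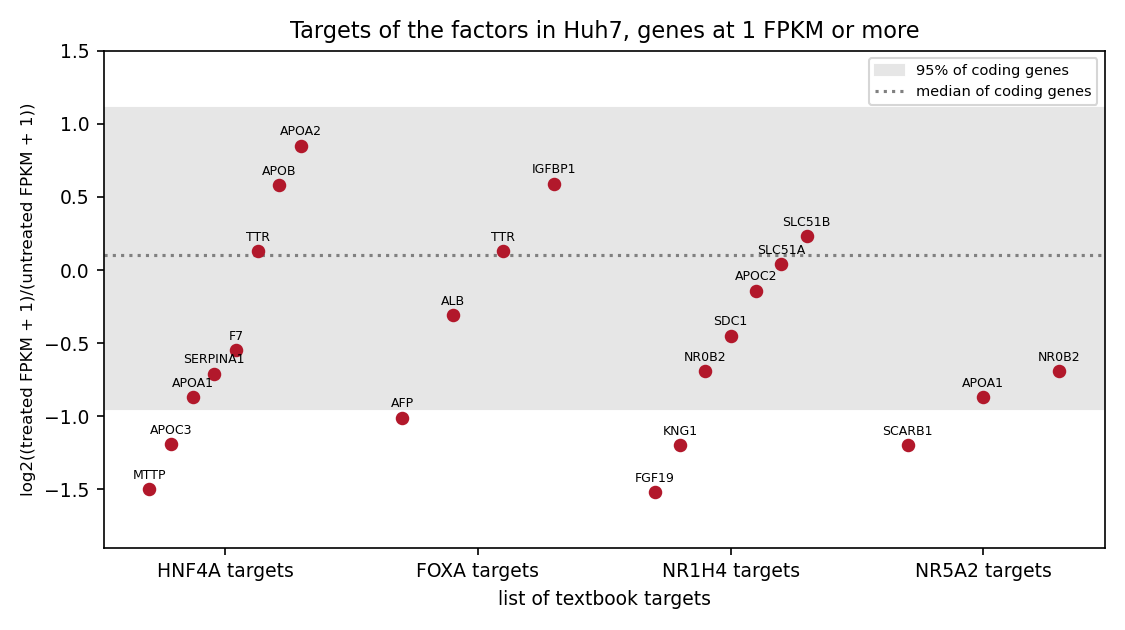
Log2 ratios of treated over untreated Huh7 libraries for listed targets of HNF4A, FOXA, NR1H4 and NR5A2 at 1 FPKM or more. Each gene drawn has 1 point in each of these lists that holds it. A grey band holds 95% of coding genes, and a dotted line marks their median of 0.102. FGF19 at −1.52, MTTP at −1.5, KNG1 and SCARB1 at −1.2, APOC3 at −1.19 and AFP at −1.01 lie below the band, and no target lies above it.

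The coding genes most like each factor over the 4 libraries were found by the Euclidean distance of log2(FPKM + 1). ONECUT1 had the closest neighbours, RNF128, TP53INP1 and DTNA, at distances of 0.12 to 0.21. NR1H4 was nearest to FAT3, TM4SF5 and LIPG, at 0.19 to 0.21. FOXA2 was nearest to SLC40A1, TTR and HSD17B2, at 0.27 to 0.38. HNF4A was nearest to SH3BP1, ENC1 and ADD3, at 0.3 to 0.4, FOXA3 to CYFIP2, RAPGEF5 and SLC39A5, at 0.31 to 0.39, and FOXA1 to SPRY1, ENTPD5 and ANK2, at 0.32 to 0.45. NR5A2 was nearest to MXRA8, VAMP5 and PDE5A, at 0.42 to 0.45. CEBPA had no close neighbour, the nearest being APOE at 1.35, MDK at 1.53 and AGT at 1.65. A distance over 4 libraries describes likeness of level and line difference only.

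The authors' deposited tables of enriched terms list genes from their own comparisons, 3213 genes for treated against untreated HepG2-labelled cells and 2438 for Huh7, of 22135 background genes (14.5% and 11.0%). In the authors' deposited table for HepG2-labelled cells 4 of the 8 factors appear, CEBPA, NR1H4, ONECUT1 and FOXA3, and in that for Huh7 cells 0 of the 8 appear. Of these 4 only CEBPA reached 1 FPKM in a HepG2-labelled library, and ONECUT1 and NR1H4 were each listed at 0 in 1 of the libraries. In the authors' deposited table of KEGG pathways, Maturity onset diabetes of the young, which lists FOXA3 and ONECUT1, held 5 of 25 genes in HepG2-labelled cells, with a p of 0.541 and a corrected p of 1. Bile secretion, which lists NR1H4, held 21 of 72 genes in HepG2-labelled cells in the authors' deposited table, with a p of 0.0627 and a corrected p of 0.587. For Huh7 cells the authors' deposited table gave 14 of 72 genes of Bile secretion, with a p of 0.192 and a corrected p of 0.946.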

How the data were processed

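Libraries were made from total RNA with an Illumina TruSeq kit, per the labels' protocols, and each of 4 groups (2 lines, treated for 24 h and untreated) holds 1 library. The authors deposited FPKM per coding gene and per long noncoding transcript, and enrichment tables with p-values per term, per the file headers. The submitters' processing notes name the aligners HISAT2 and Bowtie2 2.2.8, the assembler StringTie 1.3.1 and Cuffdiff 2.1.1; they also name SAMtools 0.1.18, GATK and Picard 1.96, with no settings. No source used here gives the genome build. Listed positions overlapped the GENCODE 29 gene of the same identifier for 19632 of 19664 genes (99.84%), so positions are GRCh38 by this match.

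Every result is computed from FPKM as deposited, with a pseudocount of 1 FPKM on the log2 scale, a minimum of 1 FPKM in at least 1 library compared and a 2-fold limit. Fragments were inferred from the step between low FPKM values of genes with 1 transcript, giving 23000000 (treated Huh7), 26700000 (untreated Huh7), 23100000 (treated HepG2-labelled) and 26100000 (untreated HepG2-labelled). Count models were not used on FPKM. The only test used limma 3.58.1 in R 4.3.3 with a mean-variance trend over 13030 genes, with terms for line and treatment, and Benjamini-Hochberg adjustment over all of them. It was tested on simulated data first. Intervals are exact 95% intervals (Python 3.11.15, scipy 1.17.1) and cover counting error only. No label says how cultures were replicated. The fit's 1 residual degree of freedom is the difference between the lines in their treated-over-untreated log2 ratio. The p-values rest on it and on the trend over 13030 genes, not on a spread between cultures.

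The factors, the gene lists and the tests were chosen with earlier results of these data known, and TATAAA was added to the motifs after the sequences were seen. Named genes are the 8 factors in every comparison, up to 4 listed genes per direction with the largest called ratio, and the 3 nearest genes of each factor. Genes named outside this rule, among them TBX3, RXRA, ONECUT2, HHEX, KLF15 and GATA6, were chosen after their values were seen. Alternatives were a pseudocount of 0.1 FPKM, no minimum, a minimum of 5 FPKM, rescaling to the same FPKM sum, size factors, limma without a trend, and limma without the line or the treatment term. Some listed genes are counted but not reported here.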

Additional observations from a re-analysis of the deposited data

Results flagged for a closer look

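CEBPA stood out because the lines lay on opposite sides of 0: its log2 ratio of treated over untreated was 2.28 in HepG2-labelled and −0.01 in Huh7 cells, a difference of 2.28. FOXA1 met the same condition with a log2 ratio of 0.08 in HepG2-labelled and −0.12 in Huh7 cells, a difference of 0.2. Neither difference was tested, because each group holds 1 library. The Huh7 value of CEBPA and the HepG2-labelled value of FOXA1 both had counting intervals that include no difference, 0.974 to 1.02 and 0.85 to 1.38 in plain ratio.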

How the results depend on the processing

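With a pseudocount of 0.1 FPKM, 1331 genes were at least 2-fold higher in treated HepG2-labelled cells (794 as reported), and in treated Huh7 cells 970 were higher (464) and 422 lower (261). The limma treatment term, which called 0 genes as reported, called 1 higher at a minimum of 5 FPKM, 1 higher after rescaling to the same sum, and 1 higher and 2 lower with size factors. None of the 8 factors changed direction, call or side of the limma threshold under the alternatives that gave it a value. At a minimum of 5 FPKM, NR1H4 between treated libraries and FOXA1 between HepG2-labelled libraries had none. Among HepG2-labelled libraries the log2 ratios of FOXA3 (up to 1.66), HNF4A (down to −1.04) and NR1H4 (down to −1.04) went past 2-fold under an alternative, and were not called because both levels were under 1 FPKM. For the factors, the adjusted p of the line term ranged between 3.55e-06 and 0.012, and that of the treatment term between 0.377 and 1. Size factors moved the Huh7 median of all genes by −0.105, so that it stood at −0.002, and rescaling moved the median of treated Huh7 over treated HepG2-labelled cells by −0.132. Without 1 library the fit with both terms has no residual degrees of freedom, and the fits with 1 term were not rerun in that way. Depth limits NR1H4, ONECUT1 and FOXA3 in HepG2-labelled cells, where they rest on about 13 fragments or fewer, and FOXA2, which had 0 in both libraries. It also limits HNF4A there, with about 5 fragments with treatment and 14 without for the shortest annotated transcript. For the longest these were 25 and 76.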
